A study of Oryza sativa with 24 samples.

Results

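Uninucleate microspores (UNMs) of rice were compared with rice callus cells across every probe set of the Affymetrix Rice Genome Array, to find which functions these tissues, both able to divide, had in common and which set them apart. The arrays were taken by their sample titles, 3 of UNMs and 3 of callus out of 24 in the series, which also holds bicellular, tricellular, mature and germinated pollen, leaves (flag leaves by the labels, seedling leaves by the methods) and roots. All 57258 probe sets that are not array controls entered. All material came from the japonica cultivar Zhonghua 10. The UNMs, just released from tetrads, were pressed from anthers of plants grown outdoors in Beijing in the natural season. Cold mannitol (0.4 M, 4°C) served as the medium, wall fragments were taken out, and the microspores were spun down (500 g, 5 min). The methods describe collection on nylon mesh instead. Callus had grown from seeds for about a month at 25°C on solid N6 medium with the synthetic auxin 2,4-D at 2 mg/l and was taken fresh. By the methods it was kept in the dark, so that the tissues also differed in light, and tissue and growth condition cannot be told apart. The titles call the arrays of a tissue biological replicates, and how many plants or calli stood behind each is not given in the sources used here.

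A microspore is the single haploid cell that meiosis leaves inside the anther. It grows, builds an exine wall, and then divides asymmetrically into a vegetative and a generative cell, the first of the divisions that make a pollen grain. Callus is a mass of unorganised cells that auxin keeps dividing, and shoots and roots can be regenerated from it. A dividing plant cell copies its DNA with a common set of origin, helicase and polymerase proteins, while D-type cyclins and cyclin-dependent kinase inhibitors set whether and when it enters the cycle.

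Values are MAS5 signals, which the authors' software scaled to the same mean of 500 on each array, and differences are log2 fold changes of signal + 50, UNM minus callus, so that changes of dim genes are understated. Values after ± are standard errors, with 3 arrays per tissue. A probe set rose in UNMs or fell in UNMs when its adjusted p was below 0.05 in limma's moderated test and the fold change was at least 1 on the log2 scale. It was shared when its signal was at least 200 on all 6 arrays and the 95% confidence interval of the fold change lay between -1 and 1. The median signal of an array was 59.5 to 81.9 for UNMs and 56.3 to 61.3 for callus. Signals of 200 or more were found for 17606 to 17881 probe sets per UNM array and 19295 to 19455 per callus array. The 9 spiked-in hybridisation controls had geometric means of 3355 to 3437 on UNM arrays and 2146 to 2574 on callus arrays. The part of these controls in the results below was not tested beyond the alternative scalings given with them. A gene takes the value of its probe set with the highest mean signal. The genes named are the 15 most raised, the 15 most lowered and, for each list of genes, up to 4 most raised, 4 most lowered and 4 shared members, and any other gene with a measured fold change is said to lie outside this naming rule. In whole-tissue RNA, fewer cells of a type and less RNA per cell cannot be told apart.

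The labelled tissues were first checked against marker genes of the cells each sample could hold. Of 11 genes of the tapetum, the anther layer that feeds the microspores, 5 were at 200 or more on all UNM arrays and 2 on all callus arrays, 2 were below 100 on all UNM arrays and 7 on all callus arrays, and their signals summed to 30170 to 32645 on UNM arrays and 5689 to 6286 on callus arrays. RTS, a tapetum gene needed for male fertility, measured 13258, 12273 and 12555 in UNMs, against 4.2, 8 and 6.1 in callus, with log2 fold change 7.83 ± 0.21, adjusted p = 9.15e-16. GAMYB, the gibberellin-regulated MYB factor of anthers and aleurone, measured 7626, 8339 and 8305 in UNMs, against 583, 521 and 548 in callus (log2 fold change 3.76 ± 0.34, adjusted p = 1.43e-08). The lipid transfer protein gene C6 (4.92), the cysteine protease gene CP1 (3.33) and the bHLH genes BHLH142 (1.84) and TDR (1.26) were also higher in UNMs, TDR, outside the naming rule, losing its call without UNM replicate 2 (1.02) or UNM replicate 3 (1.04), whereas CYP703A3, a fatty acid hydroxylase of exine formation, lay at 76.9, 50.1 and 57.0 on the UNM arrays, and BHLH141 was the second gene below 100 there. In callus RTS, C6, BHLH142 and TDR were near background. Most of the callus sum came from API5, which was shared (0.31), at 6401, 6203 and 6426 in UNMs and 4781, 5243 and 5332 in callus. C4 and PTC1 met neither definition. The tapetum sum was 10878 to 12577 in bicellular pollen, 2481 to 2896 in leaves and 2902 to 3878 in roots. The part of anther wall RNA in the UNM values below was not tested.

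Of 8 late pollen genes, 4 were at 200 or more on all UNM arrays and 1 on all callus arrays, 3 and 7 were below 100, and the list summed to 13416 to 14795 in UNMs, 343 to 517 in callus and 918365 to 954001 in mature pollen. Most of the UNM sum came from EXPB9, a beta-expansin, while CPK2, HAK20 and CSLD5 stayed under 100 on every UNM array. Of the 13 meiocyte genes 9 and 10 were at 200 or more on all arrays of UNMs and of callus, 1 and 2 below 100, and they summed to 7253 to 7870 in UNMs and 11450 to 12193 in callus. Among them PAIR1, needed for chromosome pairing, was higher in UNMs (1.57), and the recombinase gene DMC1 (-1.99) and the Argonaute gene MEL1 (-3.08) were lower. Of the 5 leaf markers 1 was at 200 or more on all UNM arrays and 0 on all callus arrays, 2 and 3 were below 100, and they summed to 1518 to 1756 in UNMs and 333 to 496 in callus, against 85193 to 111511 in leaves. CAB2R, a light-harvesting protein gene, measured 1154, 1369 and 1294 in UNMs, against 59.8, 33.8 and 90.1 in callus (3.60), with callus grown in the dark. Of the 11 root markers 2 were at 200 or more on all UNM arrays and 3 on all callus arrays, 8 and 5 were below 100, and they summed to 1481 to 1602 in UNMs and 10526 to 11547 in callus, against 94626 to 116291 in roots. Nearly all of that callus sum was NAS3, a nicotianamine synthase gene, which measured 62.4, 44.7 and 32.6 in UNMs, against 9705, 10112 and 8962 in callus (log2 fold change -6.65 ± 0.60, adjusted p = 1.1e-08).

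The list of 10 callus and embryogenic culture genes split, with 2 at 200 or more on all UNM arrays and 6 on all callus arrays, and 5 and 2 below 100. WOX6, WOX9, WOX10, WOX11 and WOX13, homeobox genes of the WUSCHEL family, were lower in UNMs, SERK1, a receptor kinase gene of somatic embryogenesis, was shared, and OSH1, WOX4 and WOX7 were close to background in both tissues. The list summed to 15943 to 16176 in UNMs and 12258 to 12924 in callus. It also held AMT1, an ammonium transporter gene, which measured 14175, 14127 and 14252 in UNMs, against 1785, 1681 and 1712 in callus. Most of the UNM sum was AMT1, so the higher sum in UNMs does not describe the other members. AMT1 was the 1 member that rose, against 5 that fell, and it averaged 14563 in leaves. The plot of marker signals shows these lists by array.

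**Figure D1:**
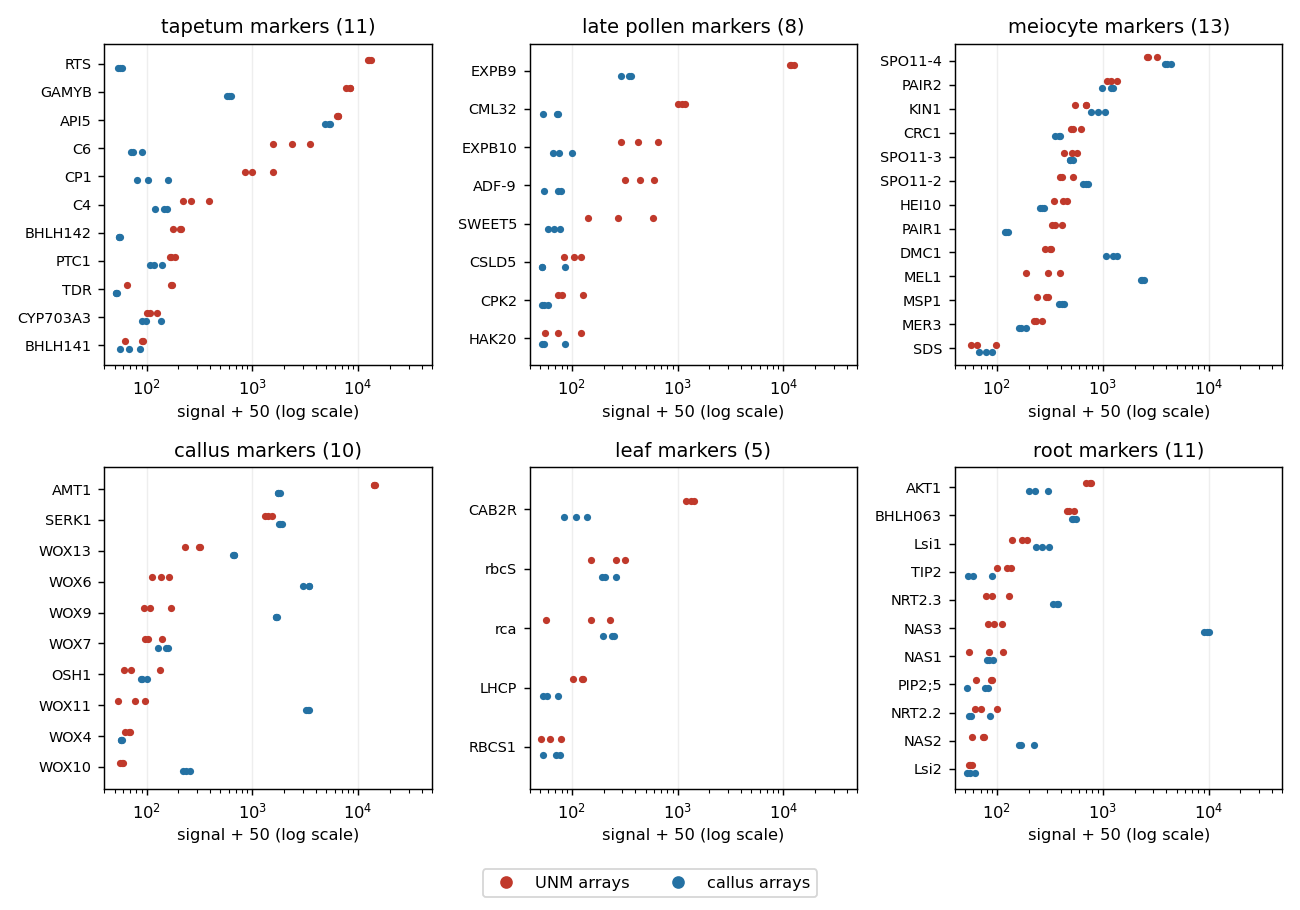
Signals + 50 of the genes in 6 marker lists on the 3 UNM arrays and the 3 callus arrays (log axis). Tapetum and late pollen genes such as RTS and EXPB9 lie far higher on the UNM arrays, and WOX11 and NAS3 far higher on the callus arrays.

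Of 47589 probe sets tested, 5604 (11.8%) rose in UNMs and 7047 (14.8%) fell, so that 12651 (26.6%) separated the tissues, while 3971 (8.34%) were shared. The shared probe sets were 29.4% of the 13491 with a signal of at least 200 on all 6 arrays. The remaining 30967 met neither definition. The median fold change over all tested probe sets was 0.10. When arrays were scaled to the hybridisation controls instead, that median was -0.16 (0.29 with poly-A controls), and 4385 rose and 10727 fell, so that 29.02% of the called probe sets were higher in UNMs, against 44.3% with the deposited scaling. No probe set had opposite calls under any setting. At the level of genes, 2418 with an informative name could be tested, of which 387 (16.0%) rose and 799 (33.0%) fell, 1186 (49.0%) in all, and 360 (14.9%) were shared, with a median of -0.25. A larger share of named genes than of probe sets was thus lower in UNMs. The shares of named genes are the background for the gene lists below. A gene can be shared only at 200 or more on all 6 arrays, so for lists of bright genes the 29.4% also applies.

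Over all probe sets, the mean profiles of UNMs and callus correlated at r = 0.7115 (rank correlation 0.7724), as a description over probe sets that share an array design and a scaling. Single UNM and callus arrays correlated at 0.6975 to 0.7176, whereas arrays of one tissue correlated at 0.9797 to 0.9941 for UNMs and 0.983 to 0.9949 for callus. Without the 100 brightest probe sets the value was 0.6468. UNMs correlated with bicellular pollen at 0.818, with roots at 0.6461, with tricellular pollen at 0.3835 and with leaves at 0.3405. Callus correlated with roots at 0.7176 and with leaves at 0.4606. The order of roots and tricellular pollen depended on the measure. With UNMs, the rank correlation was 0.7113 for roots and 0.738 for tricellular pollen, and 0.7121 and 0.7352 on log2 values.

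**Figure D2:**
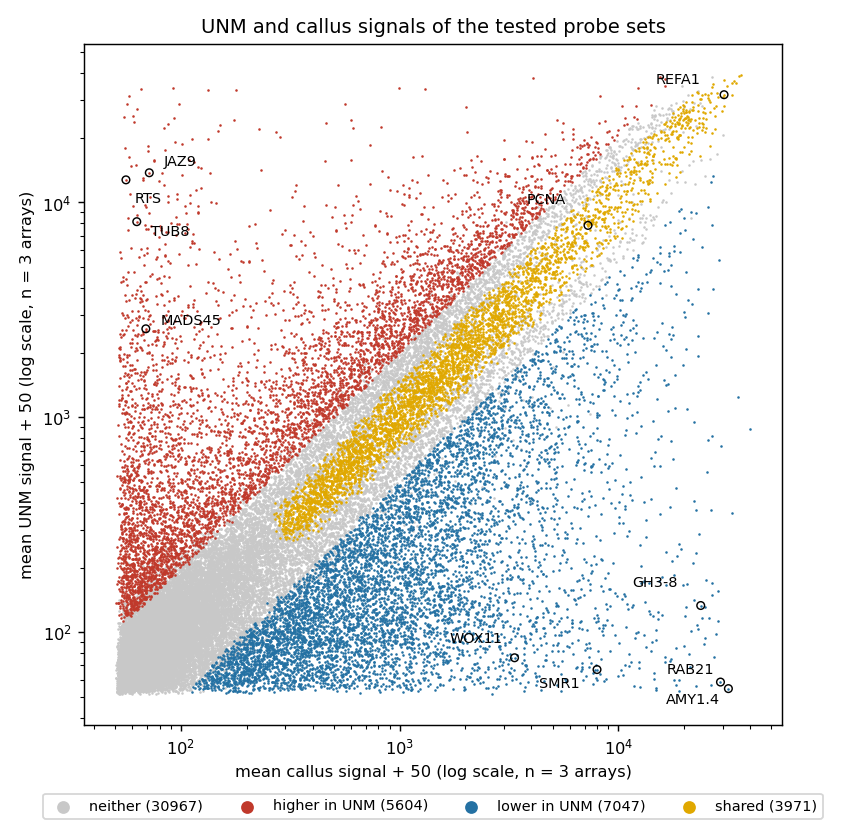
Mean signal + 50 of each tested probe set in UNMs (vertical) against callus (horizontal), both on log axes, coloured as higher in UNMs (5604), lower in UNMs (7047), shared (3971) or neither (30967). Labelled genes include PCNA and REFA1 near the diagonal, RTS, JAZ9, TUB8 and MADS45 on the UNM side, and GH3-8, WOX11, SMR1, RAB21 and AMY1.4 on the callus side.

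A group of probe sets was near background in one tissue and clearly above it in the other. On the UNM side, 1284 probe sets (2.24% of all) were at 200 or more on all 3 UNM arrays and below 100 on all 3 callus arrays, and on the callus side 2056 (3.59%) showed the opposite. Of the 1284, 823 (64.1%) were also at 200 or more on all bicellular pollen arrays, 650 (50.6%) on all tricellular and 592 (46.1%) on all mature pollen arrays, but 120 (9.35%) on all leaf and 93 (7.24%) on all root arrays. Of the 2056 on the callus side, 1169 (56.9%) were at 200 or more on all root arrays, 882 (42.9%) on all leaf arrays and 39 (1.90%) on all bicellular pollen arrays. Both sets were chosen on UNM and callus values, so only their levels in other tissues are additional. These sizes fell to 759 and 1286 with a signal of 400 in place of 200. Shares at 200 or more over all probe sets were not computed for the other tissues. Among tested probe sets that met neither definition they were 19.1% in bicellular, 18.9% in tricellular and 25.8% in mature pollen, 22.9% in leaves and 22.2% in roots. Among shared probe sets they were 93.2%, 82.9%, 74.7%, 85.4% and 90.4%. Mature pollen arrays also had higher median signals (150.6 to 197.85), which makes a signal of 200 easier to reach. Probe sets that rose in UNMs had a median signal of 1046 in UNMs and 141 in callus, with 868 in bicellular pollen, 122 in leaves and 162 in roots. Those that fell had a median of 92.2 in UNMs and 873 in callus, with 73.3 in bicellular pollen, 473 in leaves and 699 in roots. Shared probe sets had medians of 1391 in UNMs and 1363 in callus, and 1079 to 1293 in bicellular pollen, leaves and roots.

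The genes with the highest and lowest fold changes were near background in the other tissue, so their order among each other was not measured, and their fold changes depend on the 50 added to each signal. Among the 15 with the highest was LOC_Os07g40740, annotated as a heparanase-like protein, at 27767, 23087 and 23402 in UNMs, against 35.5, 43.8 and 49.6 in callus, with log2 fold change 8.06 ± 0.43, adjusted p = 3.34e-12. It averaged 8838 in bicellular pollen and 509.5 in mature pollen. LOC_Os10g05790, a proline-rich protein gene, measured 17910.5, 18389 and 18652 in UNMs, against 28.5, 9.5 and 24.7 in callus (log2 fold change 8.03 ± 0.26, adjusted p = 3.62e-15) and averaged 137 in bicellular pollen, so that its high level was seen in UNMs but not one stage later. The same group held LOC_Os11g47350, a beta-xylosidase gene (7.97), RTS (7.83), an expressed protein, LOC_Os08g14360 (7.69), and a ribonucleoprotein gene, LOC_Os05g13630 (7.69). JAZ9, a repressor of jasmonate responses, measured 16648, 11388 and 13074 in UNMs, against 9.5, 24.8 and 30.9 in callus (log2 fold change 7.58 ± 0.47, adjusted p = 3.47e-11), and Pht1;7, a phosphate transporter gene, measured 12647, 11719 and 13838 in UNMs, against 22.7, 18.3 and 10.2 in callus (log2 fold change 7.58 ± 0.37, adjusted p = 7.56e-13). The other 7 of the 15 most raised were genes of a serine carboxypeptidase (LOC_Os06g51370), a cold-regulated WCOR518-like protein (LOC_Os06g46870 and LOC_Os06g46780), a subtilisin-like protease (LOC_Os02g10520) and a sugar carrier (LOC_Os01g38680), together with NIP1-1, HAK26 and TUB8, described below, and ranged between 7.02 and 7.31. The tapetum marker sum was higher in UNMs too, at 30170 to 32645 in UNMs and 5689 to 6286 in callus, and its part in these rises was not tested.

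Among the 15 with the lowest fold changes was RAB21, a dehydrin gene of water stress and abscisic acid responses, at 6.4, 3.9 and 3.6 in UNMs, against 36033, 36979 and 22297 in callus, with log2 fold change -9.15 ± 0.57, adjusted p = 4.28e-11. Its relative RAB16B was lower by a similar amount (-8.65). AMY1.4, an alpha-amylase gene, measured 9.3, 10.5 and 6 in UNMs, against 30457, 33814 and 23404 in callus (log2 fold change -8.95 ± 0.73, adjusted p = 2.31e-09), and AMY1.3 (-8.55), AMY1.1 (-8.11) and AMY1.2 (-7.90) were also among the 15. The remaining genes were those of pyruvate decarboxylase, PDC1 (-8.30), a chitinase, Chib3H-a (-7.93), the sugar exporter SWEET1b (-7.90), TDL1B, a TPD1-like protein (-7.90), the tonoplast aquaporin TIP3 (-7.87), the haemoglobin NSHB2 (-7.73), the peroxidase R1C-Prx (-7.59), the lipid transfer protein LTP (-7.55) and GH3-8 (-7.55). All 30 genes kept their calls under every setting tried. Alpha-amylases, histones, tubulins and actins have close paralogs that short probes may not tell apart, so the identity of single members is uncertain.

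Of 30 DNA replication genes, 13 (43.3%) were shared, 5 (16.7%) rose in UNMs and 0 fell, against 14.9%, 16.0% and 33.0% of named genes. Among probe sets with a signal of at least 200 on all 6 arrays, 29.4% were shared. The median of the list was 0.28 and turned to -0.20, with 1 higher and 3 lower, under the hybridisation control scaling. PCNA, the sliding clamp of DNA polymerases, measured 8322, 7564 and 7432 in UNMs, against 5976, 8512 and 7143 in callus, with log2 fold change 0.12 ± 0.34, adjusted p = 0.878, and the arrays of the 2 tissues overlapped. The same gene averaged 1751 in bicellular pollen, 592 in leaves and 3951 in roots. MCM4, a subunit of the replicative helicase and outside the genes set by the naming rule, measured 1861, 1278 and 1572 in UNMs, against 1407, 1379.5 and 1571 in callus (0.10 ± 0.28, SE). Over the 6 genes MCM2 to MCM7, means were 992 to 4042 in UNMs and 562 to 3140 in callus. They were 592 to 2179 in roots, 147 to 653 in bicellular pollen and 24.5 to 227 in leaves. Fold changes between UNMs and callus were 0.10 to 0.90.

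The replication genes that rose were 3 of replication protein A, RFC1 and ORC2. RPA32-3, a subunit of replication protein A, which coats single-stranded DNA, measured 4429.8, 4421 and 4160.4 in UNMs, against 1329.6, 1241 and 1300.1 in callus, with log2 fold change 1.71 ± 0.30, adjusted p = 8.13e-05. RFC1, the large subunit of the clamp loader, measured 4474, 4393 and 4209 in UNMs, against 1867, 1657 and 1869.5 in callus (log2 fold change 1.26 ± 0.20, adjusted p = 3.22e-05), and no array of one tissue reached those of the other. RPA70a (1.11) was higher too, but RFC1 and RPA70a lost their calls under the hybridisation control scaling (0.78 and 0.65). ORC2, of the origin recognition complex (1.24, adjusted p = 0.0291), lost its call under the hybridisation control scaling (0.81) and without UNM replicate 2 (1.18, adjusted p = 0.0838), UNM replicate 3 (1.18), callus replicate 1 (1.08) or callus replicate 3 (1.32). Of 5 ORC genes 3 were shared, as were 3 of 5 RFC genes and 3 of 6 MCM genes. The shared part was 14.9% of named genes and 29.4% of probe sets at 200 or more on all 6 arrays.

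**Figure D3:**
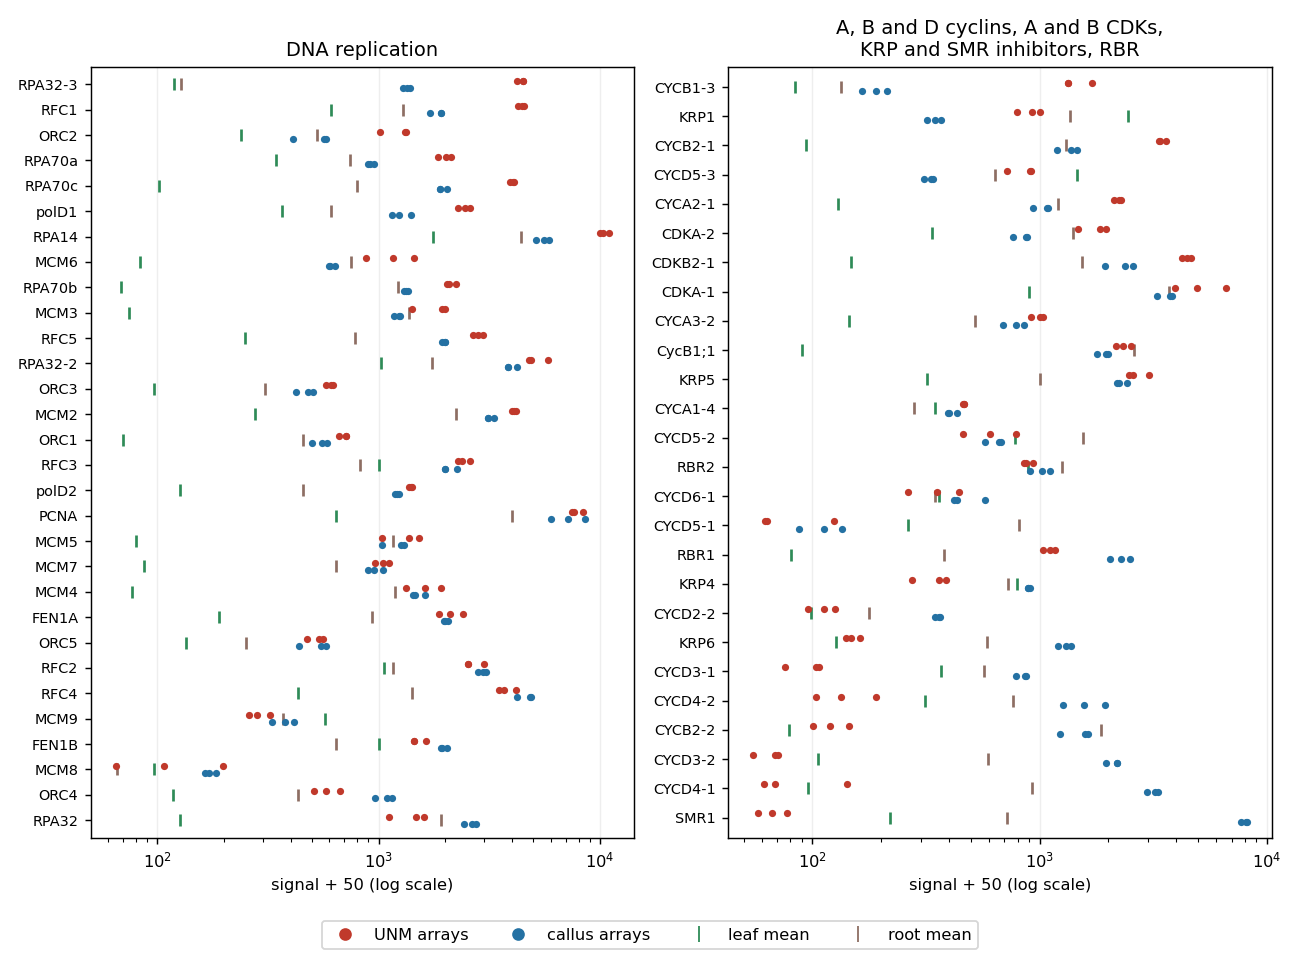
Signals + 50 on a log axis of 30 DNA replication genes (left) and of cyclins A, B and D, A- and B-type kinases, inhibitors and RBR1 (right), with UNM arrays above callus arrays for each gene and ticks for the leaf and root means. Replication genes such as PCNA and MCM4 lie at like levels in UNMs and callus, while CYCD4-1, CYCD3-2, SMR1 and KRP6 lie near background in UNMs.

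The histone list held 5 histone H2B genes, of which 3 were shared and 0 rose or fell. The shared part was 14.9% of named genes and 29.4% of probe sets at 200 or more on all 6 arrays. H2B.5, one of the shared, measured 16639, 11564 and 13101 in UNMs, against 11893, 10854 and 10868 in callus (0.28 ± 0.20, SE), with the UNM arrays reaching into the callus range. The list median was 0.28, and -0.21, with 1 lower, under the hybridisation control scaling.

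Protein synthesis genes were mostly shared. Of 22 cytosolic ribosomal protein genes, 16 (72.7%) were shared, 1 rose and 0 fell, against 14.9%, 16.0% and 33.0% of named genes, with a median of 0.38 (-0.11, and no rise, under the hybridisation control scaling). Among probe sets with a signal of at least 200 on all 6 arrays, 29.4% were shared. The brightest shared members were RPL39B, RPS21, RPS3A and RPS27AA, with fold changes of 0.51, 0.28, 0.42 and 0.30. RPS10-1, the member that rose, measured 7192, 7716 and 8399 in UNMs, against 3109.8, 2815 and 2926 in callus (log2 fold change 1.38 ± 0.25, adjusted p = 0.000156), and this was 0.90 under the hybridisation control scaling. Of 8 translation factor genes, 4 were shared and 2 rose, with a median of 0.31 (-0.18 under the hybridisation control scaling). REFA1, elongation factor 1-alpha, measured 37538, 28762 and 28789 in UNMs, against 30805, 35078 and 25170.3 in callus, with a fold change of 0.06 ± 0.22 (SE) and overlapping arrays. Against this, eIF-4G, the scaffold that joins the cap-binding protein to the ribosome, measured 10598, 7453 and 10312 in UNMs, against 1239.5, 1241 and 1231 in callus (log2 fold change 2.87 ± 0.48, adjusted p = 5.36e-05). The second that rose was eIF3k (1.03), whose call was lost under the hybridisation control scaling (0.54, adjusted p = 0.2), with equal medians (0.85), with poly-A controls (adjusted p = 0.15), and without UNM replicate 1 (0.96) or callus replicate 3 (0.93).

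The proteasome and mitochondrion lists were shared in part, and those of their genes that separated the tissues at the deposited scaling rose in UNMs. The list of proteasome and ubiquitin ligase core genes held 19, all of proteasome subunits and none of a ubiquitin ligase. Of the 19, 7 (36.8%) were shared, 4 (21.1%) rose and 0 fell, against 14.9%, 16.0% and 33.0% of named genes. The median was 0.81 and lay between 0.32 and 1.10 over the settings. All these genes were at 200 or more on all 6 arrays, and 29.4% of such probe sets were shared. All 10 genes of the catalytic core particle had UNM arrays above all callus arrays at the deposited scaling (fold changes 0.14 to 2.14). Of all tested probe sets, 54.8% had no overlap in either direction. All but PAG1 (adjusted p = 0.637) had an adjusted p below 0.05 in limma's moderated test, but only 2 of the 10 also reached the fold change limit of 1. The first was PAD1, an alpha subunit, at 13665, 13084 and 13076 in UNMs, against 3038, 2982 and 2929 in callus, with log2 fold change 2.14 ± 0.19, adjusted p = 1.29e-08. Among the regulatory subunits RPN1A (1.55) and RPN2 (1.07, 0.59 under the hybridisation control scaling) rose. The second of the core particle was PAB1 (1.02), whose call was lost under the hybridisation control scaling (0.54, adjusted p = 0.163), with equal medians (0.85), with poly-A controls (adjusted p = 0.123), and without UNM replicate 2 (0.97) or callus replicate 2 (1.00).

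Of 18 mitochondrial genes, 5 (27.8%) were shared, 4 (22.2%) rose and 0 fell, against the same background, with a median of 0.89 (0.40 to 1.18 over the settings). The shared part was near the 29.4% of probe sets with a signal of at least 200 on all 6 arrays. VDAC1, a pore of the outer membrane, measured 12165, 12077 and 12269.9 in UNMs, against 2550.2, 2292 and 2169 in callus (log2 fold change 2.36 ± 0.35, adjusted p = 1.46e-05), and VDAC3 had a fold change of 2.23. Of 5 VDAC genes 2 rose and 1 was shared. All 5 had UNM arrays above all callus arrays, where 54.8% of all tested probe sets had no overlap in either direction. AOX1, the alternative oxidase that lets electrons bypass part of the respiratory chain, measured 7152, 11572 and 9230.2 in UNMs, against 2048, 2083 and 1992 in callus (log2 fold change 2.14 ± 0.21, adjusted p = 5.27e-08). TIM13, of the import machinery, rose by 1.42 (0.93 under the hybridisation control scaling). The 8 succinate dehydrogenase genes lay within 0.05 to 0.92, with 4 shared. Vesicle trafficking (10 genes: 2 rose, 2 fell, 4 shared, median 0.12) and splicing (12 genes: 1 rose, 1 fell, 4 shared, median 0.16) had medians near 0 that turned to -0.37 and -0.32 under the hybridisation control scaling, and the 2 peroxidase and 6 photosynthesis genes tested gave 0 and 2 calls.

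**Figure D4:**
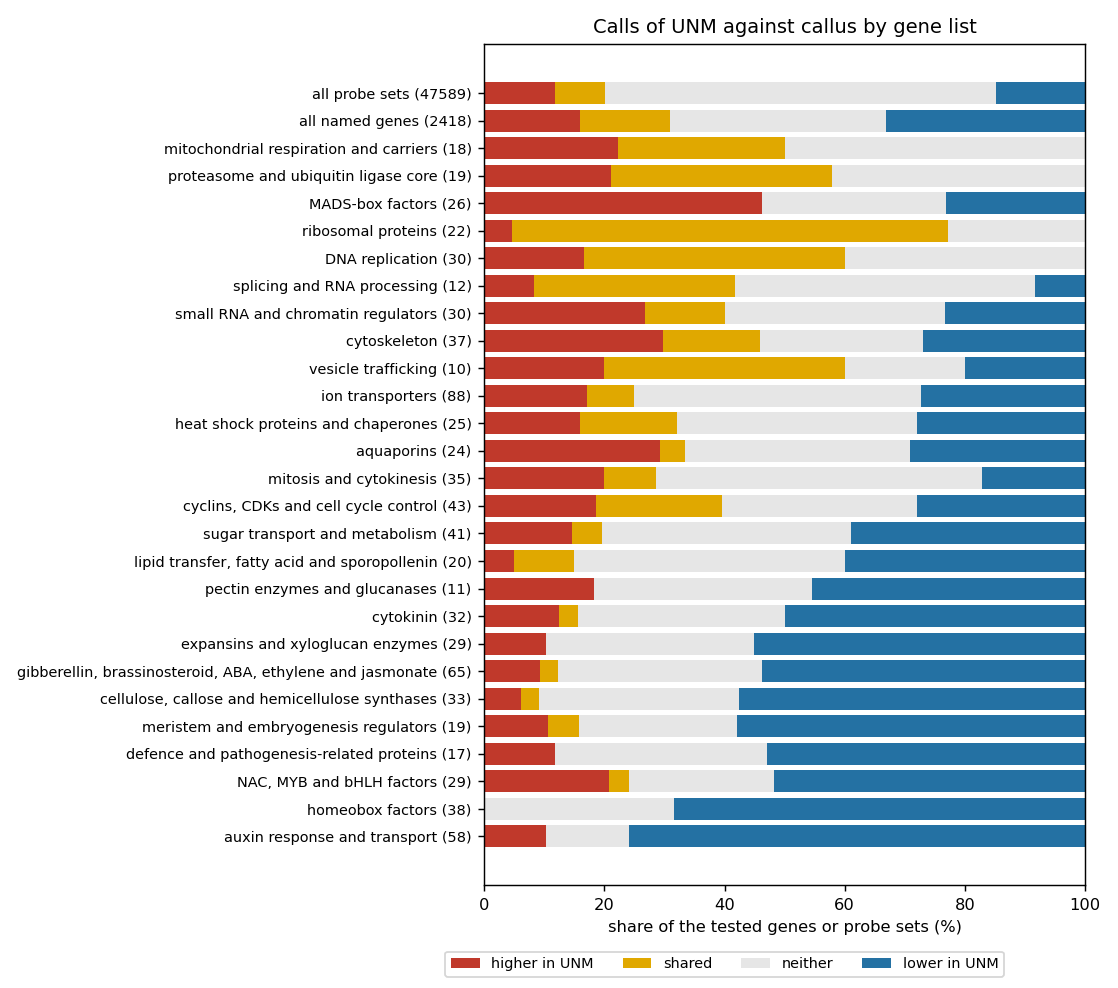
Share of tested genes in each list of 10 or more that were higher in UNMs, shared, neither, or lower in UNMs, sorted by the median fold change of the list. Ribosomal (16 of 22), replication (13 of 30) and vesicle (4 of 10) genes hold the largest shared parts, and auxin (44 of 58) and homeobox (26 of 38) genes the largest lower parts. The small positive medians of the replication, ribosomal, splicing, vesicle, cytoskeleton and chromatin lists turn negative under the hybridisation control scaling.

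Genes of cell cycle control were called about as often as named genes in general. Of 43 cyclin, kinase, inhibitor and related genes, 8 (18.6%) rose, 12 (27.9%) fell and 9 (20.9%) were shared, against 16.0%, 33.0% and 14.9% of named genes (median -0.21), so the single members below, not the counts, carry the differences. Of 9 D-type cyclins, which couple growth signals to entry into the cycle, 5 fell and 1 rose. CYCD4-1 measured 91.9, 18.3 and 11 in UNMs, against 3262, 3179.7 and 2935 in callus, with log2 fold change -5.24 ± 0.56, adjusted p = 1.55e-07, and CYCD3-2 measured 18.2, 20.3 and 4.9 in UNMs, against 1911, 2138 and 2132 in callus (log2 fold change -5.04 ± 0.37, adjusted p = 4.55e-10). Both were near background in UNMs and well above it on every callus array, with no overlap. CYCD4-2 (-3.50) and CYCD3-1 (-3.15), both outside the naming rule, fell too. CYCD5-3, also outside it, went the other way, at 871, 667 and 854 in UNMs, against 261, 291 and 282 in callus (log2 fold change 1.36 ± 0.30, adjusted p = 0.00116), with 0.96 and no call under the hybridisation control scaling.

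Mitotic cyclins of type B divided between the tissues. CYCB1-3 measured 1651, 1291 and 1283 in UNMs, against 162, 116 and 142 in callus, with log2 fold change 2.94 ± 0.39, adjusted p = 2.55e-06, and CYCB2-1 rose as well (1.36, 0.89 under the hybridisation control scaling). CYCB2-2 measured 50.3, 69.2 and 94.6 in UNMs, against 1581, 1186 and 1542 in callus (log2 fold change -3.62 ± 0.38, adjusted p = 9.67e-08), so that 2 cyclins of the B2 group had opposite calls. CycB1;1, outside the naming rule, differed by 0.29 and met neither definition. Of the 3 A-type cyclins 1 rose, and of 11 cyclin-dependent kinases 2 rose, 1 fell and 3 were shared. CDKB2-1, a mitotic kinase outside the naming rule and not called, had a fold change of 0.96 with adjusted p = 0.0599.

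Inhibitors of cyclin-dependent kinases went both ways, and of 4 KRP genes 2 fell, 1 rose and 1 was shared. SMR1, an inhibitor of the SIAMESE family, measured 16.3, 7.5 and 27.2 in UNMs, against 8022, 7643 and 8133 in callus (log2 fold change -6.91 ± 0.43, adjusted p = 3.73e-11), with every UNM array near background. The KRP genes other than KRP1 lie outside the naming rule. KRP6, of the family of Kip-related proteins, measured 90.3, 98.5 and 112 in UNMs, against 1258, 1157 and 1327 in callus (log2 fold change -3.11 ± 0.42, adjusted p = 3.27e-06), and KRP4 fell as well (-1.41, with no call under quantile normalization, -0.92, or with poly-A controls, -1.20). KRP5 was at like levels, at 2428, 2521 and 2968 in UNMs, against 2379.6, 2148 and 2196 in callus (0.23 ± 0.23, SE, shared). KRP1 measured 959.8, 744 and 879.7 in UNMs, against 296, 318 and 271 in callus, with adjusted p = 0.000306, a rise whose fold change became 0.99 under the hybridisation control scaling. RBR1, the retinoblastoma-related repressor of S-phase genes and also outside the naming rule, had a fold change of -1.03 that did not pass the test (adjusted p = 0.15), while another of its probe sets fell, and it was called lower under the hybridisation control scaling (-1.53), with equal medians (-1.22), with an offset of 100 (adjusted p = 0.0438) and in a fit of the 6 arrays only (adjusted p = 0.000587).

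Mitosis and cytokinesis genes, mostly kinesin motors, went both ways. Of 35, 7 (20.0%) rose, 6 (17.1%) fell and 3 were shared, against 16.0% higher and 33.0% lower among named genes (median -0.20, and 0.08 under the scaling to poly-A controls, with 3 higher and 14 lower under the hybridisation control scaling). KIN14H measured 3090.4, 3290.3 and 3164 in UNMs, against 859, 874 and 793 in callus, with log2 fold change 1.86 ± 0.49, adjusted p = 0.00477, and KIN14I fell (-2.89). KIN5A, of the spindle kinesin family, fell by 1.95 but not under quantile normalization (-1.34, adjusted p = 0.0513).

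Auxin genes had the lowest median of the 39 lists. Of 58 auxin genes, 44 fell in UNMs, 6 rose and 0 were shared, against 33.0%, 16.0% and 14.9% of named genes, and the median was -2.87 (-3.41 to -2.70 over the settings, with 38 to 47 lower). Callus alone grew on an auxin medium, so tissue and medium cannot be told apart. Of 25 Aux/IAA genes, repressors that auxin both induces and degrades, 22 fell and 1 rose. IAA9 measured 16.7, 6.9 and 7.2 in UNMs, against 5612, 5788 and 5469 in callus (log2 fold change -6.56 ± 0.47, adjusted p = 3.17e-10), and IAA6 fell by a similar amount (-6.05). IAA8, the one that rose, measured 344, 238 and 267 in UNMs, against 62.1, 49.4 and 76.1 in callus (log2 fold change 1.56 ± 0.27, adjusted p = 6.72e-05).

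GH3 enzymes conjugate auxin or jasmonate to amino acids, and 6 of 9 fell with 0 rising. GH3-8 measured 41.2, 61.8 and 146 in UNMs, against 24378, 27445 and 19367 in callus, with log2 fold change -7.55 ± 0.40, adjusted p = 3.68e-12. GH3.2 measured 70.6, 81.2 and 56.1 in UNMs, against 15053, 14763 and 13329.8 in callus (log2 fold change -6.92 ± 0.25, adjusted p = 1.23e-14). In both genes the UNM arrays lay at or near background, and no array of one tissue reached those of the other. Auxin response factors, which bind auxin-responsive promoters, fell in 13 of 17 genes, with 3 exceptions that rose. ARF13 measured 1891, 2027 and 1897 in UNMs, against 274, 273 and 272 in callus (log2 fold change 2.62 ± 0.33, adjusted p = 1.67e-06) and ARF22 measured 11138, 8743 and 10551 in UNMs, against 1779, 1492 and 1588 in callus (log2 fold change 2.61 ± 0.30, adjusted p = 4.68e-07). The third, ARF10 (1.58), lost its call without UNM replicate 1 (adjusted p = 0.0503). Among 5 PIN genes for auxin efflux carriers, all outside the naming rule, 2 rose and 2 fell, but only OSPIN10a (-5.01) kept its call whichever array was left out. PIN5 (1.44) lost its rise without UNM replicate 2 (1.32), UNM replicate 3 (1.46) or any one callus replicate (1.29 to 1.52). PIN4 (1.21) lost its rise without UNM replicate 1 (1.05), UNM replicate 2 (1.15) or callus replicate 3 (1.09). PIN2 (-1.10) lost its fall without UNM replicate 3 (-0.94), callus replicate 1 (-1.11) or callus replicate 2 (-1.04).

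**Figure D5:**
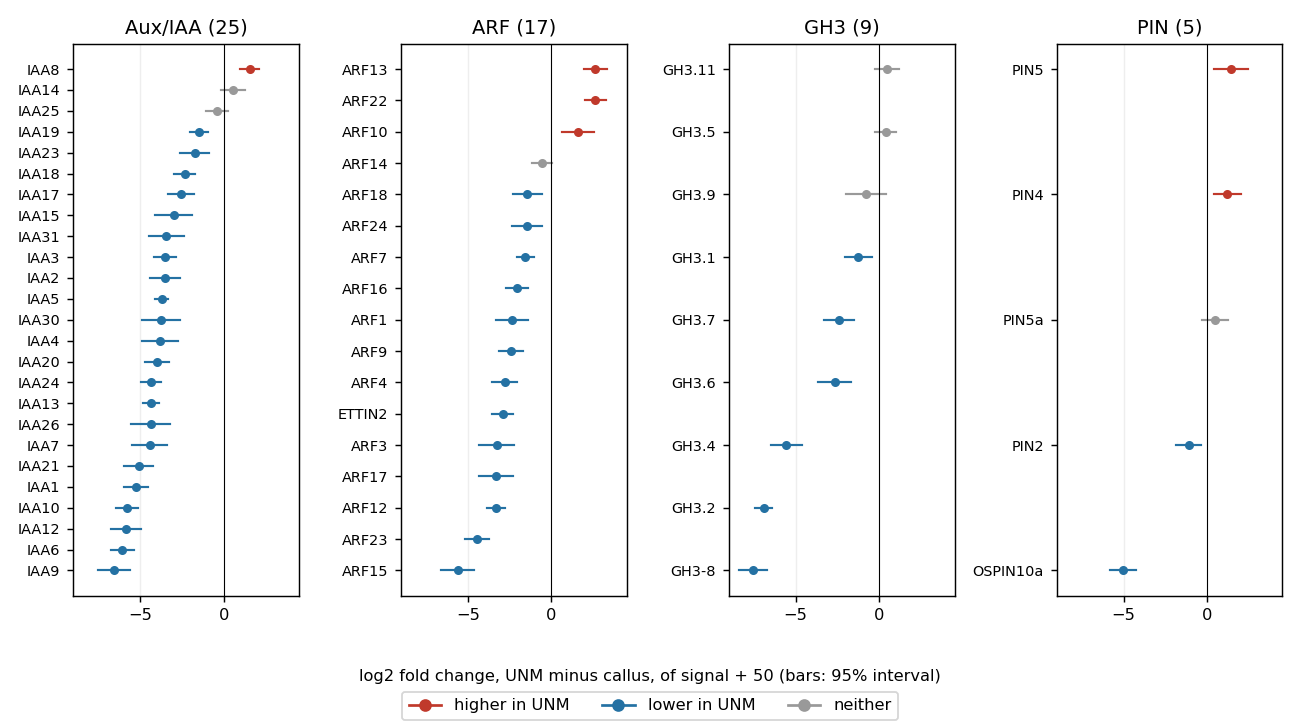
Log2 fold change (UNM minus callus, signal + 50) with 95% confidence intervals for 25 Aux/IAA, 17 ARF, 9 GH3 and 5 PIN genes. Most points lie far below 0, down to GH3-8 at -7.55, while ARF13, ARF22, ARF10, IAA8, PIN5 and PIN4 are the genes that rose and lie above it.

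Other hormone pathways leaned to callus with named exceptions. Of 32 cytokinin genes, 16 fell, 4 rose and 1 was shared, against 33.0%, 16.0% and 14.9% of named genes (median -0.96). CKX11, a cytokinin-degrading oxidase (-3.88), the response regulators RR23 (-3.34) and RR24 (-3.02) and the receptor kinase HK5 (-2.70) were the most lowered, and all 3 receptor histidine kinase genes fell. Of 8 genes of the LOG family, which release active cytokinin from its nucleotide, 3 rose, led by LOGL7 (1.68), and 2 fell. RR6 also rose (1.60).

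Of 65 gibberellin, brassinosteroid, abscisic acid, ethylene and jasmonate genes, 35 (53.8%) fell, 6 (9.23%) rose and 2 were shared, against the same background (median -1.28). BRI1, the brassinosteroid receptor, measured 8.5, 3.8 and 53.9 in UNMs, against 3398, 3593 and 3776 in callus (log2 fold change -5.72 ± 0.44, adjusted p = 1.05e-09), which placed it near background in UNMs. EIL1A, an ethylene signalling factor (-5.35), the jasmonate synthesis enzyme aoc (-5.30) and the brassinosteroid synthesis gene DWARF (-5.16) had fold changes of like size. Of 12 JAZ repressors 7 fell and 2 rose, JAZ9 and JAZ13 (3.56). Oxophytodienoate reductase genes went both ways. OPR12 (2.76) and OPR4 (2.46) rose, whereas OPR1 (-3.38) and OPR-1 (-2.08), both outside the naming rule, fell. OPR7 and OPR13 met neither definition. The jasmonate receptor genes COI1B (-4.61) and COI1 (-2.48) fell, and COI2 rose (1.37, 0.89 under the hybridisation control scaling). Of 10 SAPK kinases of abscisic acid and osmotic signalling 7 fell and 0 rose.

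Transcription factor families differed in direction. Of 38 homeobox genes, 26 (68.4%) fell and 0 rose, against 33.0% and 16.0% of named genes (median -1.84, 22 to 29 lower over the settings). hox14 measured 2.7, 3.1 and 3.3 in UNMs, against 3724, 3573 and 3704 in callus, with log2 fold change -6.13 ± 0.36, adjusted p = 1.74e-11, and HOX1 (-4.75), HOX12 (-4.57) and ZHD10 (-4.47) fell as well. Of 8 ROC genes of epidermal HD-Zip factors 6 fell. Of 19 meristem and embryogenesis regulators 11 (57.9%) fell, 2 rose and 1 was shared (median -1.37). WOX11, an activator of crown root growth, measured 46.7, 4.1 and 27.3 in UNMs, against 3303, 3403 and 3199 in callus (log2 fold change -5.50 ± 0.42, adjusted p = 9.76e-10), and WOX6 measured 112, 61.6 and 88.3 in UNMs, against 3352, 3361 and 2944 in callus (log2 fold change -4.59 ± 0.32, adjusted p = 1.92e-10). WOX9 (-3.82) and SHR1, a SHORT-ROOT factor (-3.80), fell too. OSH43, a KNOX homeobox gene, measured 585, 539 and 375 in UNMs, against 72.6, 20.5 and 34.9 in callus (log2 fold change 2.59 ± 0.47, adjusted p = 0.000144). SERK1, the shared member, measured 1254, 1352 and 1475 in UNMs, against 1732, 1869 and 1777 in callus (-0.39 ± 0.25, SE).

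Among the transcription factor lists, that of MADS-box factors held the most rises. Of 26, 12 (46.2%) rose, 6 (23.1%) fell and 0 were shared, against 16.0%, 33.0% and 14.9% of named genes (median 0.49, 0.27 to 1.26 over the settings). MADS45, known from floral organ identity, measured 3064, 2368 and 2166 in UNMs, against 17.7, 19.4 and 20.4 in callus, with log2 fold change 5.21 ± 0.28, adjusted p = 3.31e-12. It was followed by mads47 (3.85), MADS24 (3.50) and MADS55 (3.02). MADS5 measured 87.6, 94.7 and 55.3 in UNMs, against 4574, 4936 and 4307 in callus (log2 fold change -5.18 ± 0.38, adjusted p = 4.52e-10), and MADS1 (-3.49), MADS57 and MADS25 (-2.19) also fell, so that floral genes of this family stood on both sides.

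Of 29 NAC, MYB and bHLH genes, 15 (51.7%) fell, 6 (20.7%) rose and 1 was shared, against 33.0%, 16.0% and 14.9% of named genes (median -1.69), led by NAC067 (-5.77), NAC071 (-5.39) and NAC076 (-4.69) among those that fell and GAMYB (3.76) and NAC010 (1.94) among those that rose. Probe sets of MYBS2, a MYB factor of sugar-regulated amylase promoters, disagreed. The probe set that stands for the gene measured 36.2, 22.9 and 73.6 in UNMs, against 4886, 4709 and 3464 in callus (log2 fold change -5.57 ± 0.41, adjusted p = 5.1e-10), and another probe set of the gene measured 416, 735 and 525 in UNMs, against 141, 124 and 181 in callus (1.59). The probe sets of myb30, outside the naming rule, also had calls in both directions (1.09 and -3.13). Of 6 WRKY genes 3 fell and 0 rose, with WRKY51 at -4.48.

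Wall genes leaned to callus, apart from a few that rose in UNMs. Of 29 expansin and xyloglucan genes, which loosen walls, 16 (55.2%) fell, 3 (10.3%) rose and 0 were shared, against 33.0%, 16.0% and 14.9% of named genes (median -1.10). EXP7 measured 199.6, 176 and 175 in UNMs, against 23330.1, 24573 and 19889 in callus, with log2 fold change -6.60 ± 0.37, adjusted p = 8.3e-12, and EXPB3 (-5.63), EXPB4 (-4.56) and EXPB6 (-4.41) fell next to it. EXPB9, of the group known from grass pollen, measured 11599, 11678 and 12588 in UNMs, against 301, 310.5 and 242 in callus (log2 fold change 5.17 ± 0.33, adjusted p = 4.89e-11). EXPB10, of the same group, had a fold change of 2.43. The third, EXP32 (1.25), lost its call with an offset of 100 (0.84), with poly-A controls (adjusted p = 0.0895), in a fit of the 6 arrays only (adjusted p = 0.0976) and without UNM replicate 2 (0.64).

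Of 33 cellulose, callose and hemicellulose synthase genes, 19 (57.6%) fell, 2 rose and 1 was shared (median -1.30). Among named genes these shares were 33.0%, 16.0% and 14.9%. Of 9 cellulose synthases 6 fell. CESA2, a cellulose synthase gene, measured 7.7, 3.9 and 3.6 in UNMs, against 764, 696 and 572 in callus (log2 fold change -3.72 ± 0.43, adjusted p = 4.9e-07), and CSLC9, of a family that makes the xyloglucan backbone, fell by 4.75. CSLA9, of a family of mannan synthases, rose (2.59). Of 11 pectin enzyme and glucanase genes 5 fell and 2 rose (median -0.88), with GLU8 (-4.97) and GLU1 (-4.43) lowest. Of 20 lipid and sporopollenin genes 8 (40.0%) fell, near the 33.0% of named genes, and 1 rose (median -0.78). That one was CHS, a chalcone synthase gene (2.11), and LTP-2 (-7.09) stood beside LTP among those that fell.

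Sugar genes held wide gaps on both sides. Of 41, 16 (39.0%) fell, 6 (14.6%) rose and 2 were shared, near the 33.0% and 16.0% of named genes (median -0.59). CIN3, a cell wall invertase gene, which splits sucrose outside the cell, measured 7198, 8049 and 7527 in UNMs, against 22.5, 55.6 and 16.2 in callus, with log2 fold change 6.58 ± 0.42, adjusted p = 6e-11. SWEET6a, of the sugar exporters, measured 14596, 14436 and 13221 in UNMs, against 198, 181 and 166 in callus (log2 fold change 5.93 ± 0.35, adjusted p = 2.13e-11). GBSS-I, the starch synthase that makes amylose (4.98), and CIN7 (2.59) also rose. In callus, by contrast, 4 of 5 alpha-amylase genes, whose enzymes break down starch, were higher, and SWEET1b had a fold change of -7.90.

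Of 24 aquaporin genes 7 (29.2%) rose and 7 fell, against 16.0% and 33.0% of named genes (median -0.15, and 0.09 under the scaling to poly-A controls). NIP1-1, a nodulin-type intrinsic protein channel, measured 21737, 18549 and 19019.5 in UNMs, against 75, 79.4 and 94.2 in callus, with log2 fold change 7.22 ± 0.21, adjusted p = 1.26e-15. TIP1 (6.59) and the silicon channel Lsi6 (4.33) were high in UNMs as well. TIP3 measured 85.9, 15.8 and 57.3 in UNMs, against 23343, 24840.2 and 20861 in callus (log2 fold change -7.87 ± 0.45, adjusted p = 9.45e-12), and the plasma membrane channels PIP1;1 (-3.93) and PIP2;1 (-3.64) fell. Of 4 NIP genes 3 rose.

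Of 88 ion transporter genes, 15 (17.0%) rose, 24 (27.3%) fell and 7 were shared, near the 16.0% and 33.0% of named genes, with a median of -0.01 that lay between -0.37 and 0.19 over the settings. The potassium transporter HAK26 (7.15) and the phosphate transporter Pht1;12 rose beside Pht1;7, and AMT1 rose as well. ZIP4, a zinc transporter gene, measured 20.7, 8.2 and 29.5 in UNMs, against 5098, 5206 and 5383 in callus (log2 fold change -6.26 ± 0.64, adjusted p = 8.14e-08), and the metal chelate transporters osysl12 (-4.05) and YSL14 (-3.87) and ZIP8 (-3.70) also fell. Of 8 ZIP genes 4 fell and 1 rose, and of 9 Pht1 genes 3 rose and 2 fell.

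Cytoskeleton genes differed by member. Of 37, 11 (29.7%) rose, 10 (27.0%) fell and 6 were shared, against 16.0%, 33.0% and 14.9% of named genes (median 0.13, -0.32 under the hybridisation control scaling and -0.04 with equal medians). TUB8, a beta-tubulin gene known from anthers, measured 7563, 8290.5 and 8421 in UNMs, against 19, 7.6 and 12 in callus, with log2 fold change 7.02 ± 0.20, adjusted p = 9.15e-16. Its level was not particular to pollen, as it averaged 8936 in roots and 349 in leaves. Among actin-depolymerising factors ADF-6 (6.11) and ADF-1 (4.47) rose, and ADF-5 (-3.82) and ADF-7 (-2.99) fell. Formins, which nucleate actin filaments, also went both ways, with FH6 at 4.98 and FH15 at -5.38. Of 10 tubulin genes 4 were shared, among them TID1, TUB3 and TUBA1.

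Heat shock proteins and chaperones were called in shares near the background. Of 25, 4 (16.0%) rose, 7 (28.0%) fell and 4 (16.0%) were shared, against 16.0%, 33.0% and 14.9% of named genes (median -0.09, between -0.55 and 0.16 over the settings). HSP18.1 measured 2999, 3967 and 3067 in UNMs, against 177, 202 and 131 in callus, with log2 fold change 3.95 ± 0.53, adjusted p = 3.38e-06, whereas HSP18.6 measured 175, 66.2 and 113 in UNMs, against 7621, 6864 and 7523 in callus (log2 fold change -5.51 ± 0.49, adjusted p = 9.35e-09). BIP4, a chaperone of the endoplasmic reticulum, measured 592, 1889.8 and 1219 in UNMs, against 31.7, 33.2 and 7.5 in callus (log2 fold change 3.99 ± 0.66, adjusted p = 4.91e-05); its UNM arrays differed widely from each other and all lay above the callus arrays. The cytosolic HSP90 genes HSP81-2 and HSP81-3 were shared.

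Of 30 small RNA and chromatin genes, 8 (26.7%) rose, 7 (23.3%) fell and 4 were shared, against 16.0%, 33.0% and 14.9% of named genes (median 0.15, -0.27 under the hybridisation control scaling). Of 13 Argonaute genes, whose proteins hold small RNAs, 3 rose, 5 fell and 1 was shared. AGO17 measured 1569.9, 1989 and 1757 in UNMs, against 44.3, 56.1 and 32.6 in callus, with log2 fold change 4.27 ± 0.40, adjusted p = 1.99e-08. The gene listed as AGO1 measured 56.4, 55.9 and 60.2 in UNMs, against 2769, 2667 and 2421 in callus (log2 fold change -4.63 ± 0.34, adjusted p = 5.79e-10), PNH1 (-3.46) and MEL1 (-3.08) fell as well, and AGO4A was shared. The Dicer gene DCL2A (1.95), the histone demethylase gene JMJ706 (1.76) and the histone methyltransferase gene Trx1 (1.41, 0.95 under the hybridisation control scaling) rose. RDR4, an RNA-dependent RNA polymerase gene, fell (-2.79).

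Of 17 defence genes 9 (52.9%) fell and 2 rose, against 33.0% and 16.0% of named genes (median -1.41), and of 9 chitinases 6 fell, led by Cht-3 (-5.81) and Cht-1 (-5.26), while Cht4 (3.40) and Cht7 (2.64) rose. The protease inhibitor gene RBBI3.3 fell by 5.61. Of 6 glutathione S-transferase genes 3 fell, with GSTU6 at -4.82, and 1 rose. Of 4 F-box genes 2 fell and 1 rose. Of the genes set by the naming rule, 37 of 272 had another tested probe set in a different class, and 1 of these, MYBS2, had a call in the opposite direction. Among genes described above, eIF-4G, VDAC1, TIM13, RPN1A, PAB1, KRP4, KRP6, CKX11, LOGL7, EIL1A, NAC071, EXP7, CESA2, CHS, AMY1.3, PIP2;1, osysl12, HSP18.6 and Trx1 had another probe set that met neither definition. So did the shared genes RPS3A, RPS21 and HSP81-3, and a further probe set of RPS3A rose.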

How the data were processed

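Total RNA of each tissue was hybridised to 1 Affymetrix Rice Genome Array per sample. The deposited table holds signal intensity values on a linear scale, which the authors obtained with MAS5 in GCOS and scaled to 500 on each array (versions not given in the sources used here). Here 123 control probe sets of 57381 were left out, 50 was added, log2 was taken, and probe sets with a signal of at least 100 on 3 or more of the 24 arrays were tested (47589). One mean per tissue was fitted to all 24 arrays with limma 3.58.1 in R 4.3.3, and UNM minus callus was taken as a contrast with Benjamini-Hochberg adjustment, so the spread is pooled over 8 tissues. On simulated data, 58 of 67 probe sets changed by 2 on the log2 scale were called, with 4 false calls among 47389. Of the 34 raised ones 26 were called, so raised probe sets were missed more often than lowered ones. Tables were handled with pandas 2.3.3 and figures drawn with matplotlib 3.10.9.

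Gene names came from the platform annotation updated through RefSeq (assembly ASM3414082v1). Of all probe sets, 22436 matched 1 gene, 95 several and 34727 none, and 3186 had an informative name. Locus names from the study's tables were used for 1312 others, only among the most changed. A gene took the value of its probe set with the highest mean over the 6 arrays, 522 named genes had over 1 probe set, and probe sets of 4 had calls in both directions. The text names the 15 most raised and 15 most lowered genes and, for each of 39 gene lists, up to 4 most raised, 4 most lowered and 4 brightest shared members; any other gene was chosen after its values were seen. The lists were built from symbols and descriptions, and the comparison and the lists were chosen with earlier results of these data known. No list test was run. The number of arrays limits the precision, and confidence intervals and p-values measure the spread between arrays. Alternatives were offsets of 16 and 100, other filters, equal medians, quantile normalization, scaling to hybridisation or poly-A controls, a fit of the 6 arrays only, a variance trend, a replicate block and leaving out each array.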

Additional observations from a re-analysis of the deposited data

How the results depend on the processing

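Of 205 called genes set by the naming rule, 176 kept their call under each of 18 alternative fits, 29 lost it under at least 1, and 0 reversed. Scaling to the hybridisation controls lost 19 of these calls and gave 10727 probe sets lower in UNMs in place of 7047. Scaling to the poly-A controls lost 13 of these calls and, over all probe sets, kept 4534 higher and 4862 lower calls, against 4109 and 7047 kept with the hybridisation controls. The poly-A scaling left 0 shared probe sets in place of 3971, its median standard error being 0.59 against 0.38, whereas a fit of the 6 arrays alone gave 6346 (median standard error 0.19). None of the 67 shared genes set by the naming rule thus kept that class under every alternative. Offsets of 16 and 100 gave 2958 and 5092 shared probe sets, and a shared signal of 100 or 500 gave 4602 and 3000. A signal of 400 in place of 200 left 759 probe sets on the UNM side and 1286 on the callus side of the near-background sets. The correlation of the mean profiles was 0.79 on log2 values and 0.77 on ranks. Leaving out 1 array at a time gave 5132 to 5286 higher, 6488 to 6623 lower, 11685 to 11886 called and 3104 to 3249 shared probe sets. Same-numbered UNM and callus arrays did not deviate together (correlations of 0.0098 to 0.0484), so the numbers were not taken to pair them, and with the replicate number as a block 5622 probe sets rose, 7074 fell, 12696 were called and 4086 were shared. A linear signal table gives no detection calls here, so levels below about 100 are not resolved.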
